A study of Mus musculus with 12 samples.

Results

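The genes described here are the 6 type IV collagen chain genes of the mouse, Col4a1 to Col4a6, and P3h2, a prolyl 3-hydroxylase, 7 of the 25208 genes in the deposited table. They were chosen by gene symbol, with their response to dDAVP in these libraries already known, and all 7 had a row and passed the filter on low counts, as did 16508 genes in all. RNA was sequenced from mpkCCDc11 cells, a clonal immortalised mouse line with features of the kidney cortical collecting duct, labelled wild type. The 4 groups of 3 libraries were Ctnnb1-siRNA with dDAVP, Ctnnb1-siRNA with vehicle, control-siRNA with dDAVP and control-siRNA with vehicle. Each siRNA was used at 50 nM. dDAVP is a vasopressin analogue that acts mainly on the V2 receptor and so raises cyclic AMP in collecting duct cells, and it was given at 1 nM for 24 h to the basolateral side. All cells, those given vehicle included, had grown for 4 days on permeable supports and then spent 24 h in medium without serum or hormones. The study asked how loss of beta-catenin, the product of Ctnnb1 that works both in adherens junctions and in Wnt signalling, alters the response to dDAVP. Whether replicates came from separate cultures is not labelled, so p-values measure only the spread between these libraries, which may be technical.

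Type IV collagen is the sheet-forming collagen of basement membranes, the layer on which epithelia rest. Its chains assemble as triple helices in fixed combinations. The alpha1 and alpha2 chains form the trimer found in nearly all basement membranes, the alpha3, alpha4 and alpha5 chains form a trimer best known from the glomerular basement membrane and also found under distal nephron epithelium, and the alpha5 and alpha6 chains form another. Mutations of the human genes for alpha3, alpha4 or alpha5 cause Alport syndrome. P3h2 is an enzyme of the endoplasmic reticulum that adds a hydroxyl group at the 3 position of certain prolines, and type IV collagen is its best known substrate.

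The 6 chain genes lie in 3 head-to-head pairs, so that the start sites of the genes of a pair face away from each other. In GRCm38.p6 Col4a1 (gene ID 12826, minus strand) spans 8:11198423-11312889 and Col4a2 (gene ID 12827, plus strand) spans 8:11312805-11449287. Col4a3 (gene ID 12828, plus strand) spans 1:82586921-82722059 and Col4a4 (gene ID 12829, minus strand) spans 1:82448419-82587034. Col4a5 (gene ID 12830, plus strand) spans X:141475370-141689236 and Col4a6 (gene ID 94216, minus strand) spans X:141165403-141474095. P3h2 (gene ID 210530, minus strand) stands outside these pairs at 16:25959284-26105813. In the GENCODE M21 annotation of the same build the first exons of Col4a1 and Col4a2 overlap by 22 bases, the starts of Col4a3 and Col4a4 leave 71 bases between them, and those of Col4a5 and Col4a6 leave 1308 bases. The RefSeq gene spans given above overlap by 85 bases for the first pair and by 114 bases for the second, and leave 1274 bases between Col4a5 and Col4a6.

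**Figure D1:**
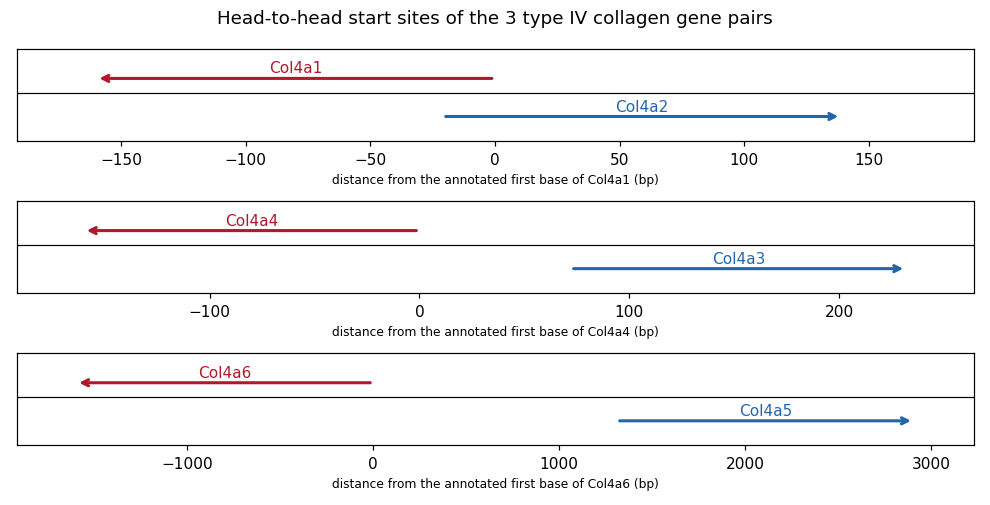
Start sites of the 3 head-to-head pairs, with the distance in bp from the annotated first base (GENCODE M21) of the gene on the minus strand on each horizontal axis and an arrow in the direction of transcription; scales differ between panels. Col4a1 and Col4a2 overlap by 22 bases, Col4a4 and Col4a3 lie 71 bases apart, and Col4a6 and Col4a5 lie 1308 bases apart.

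RefSeq promoter windows of GRCm38.p6, from 250 bases before to 50 bases after a start site that can differ from the end of the gene span, were found for 5 of the 7 genes, among them those below. The windows of Col4a1 (8:11312777-11313076, minus strand) and Col4a4 (1:82586800-82587099, minus strand) are shown because each holds the GENCODE start sites of both genes of its pair, and the capitals run from the GENCODE M21 first base of one gene to that of the other. The window of Col4a5 (X:141475169-141475468, plus strand) is shown because its start stands apart from that of its partner, and the capitals mark the letters CGTCA, the complement of TGACG.
Col4a1: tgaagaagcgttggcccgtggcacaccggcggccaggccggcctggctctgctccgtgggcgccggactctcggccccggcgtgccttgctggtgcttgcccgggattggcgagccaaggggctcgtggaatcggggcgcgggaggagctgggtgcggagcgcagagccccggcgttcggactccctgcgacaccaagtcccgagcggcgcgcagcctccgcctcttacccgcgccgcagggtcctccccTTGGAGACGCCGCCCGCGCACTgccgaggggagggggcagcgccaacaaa
Col4a4: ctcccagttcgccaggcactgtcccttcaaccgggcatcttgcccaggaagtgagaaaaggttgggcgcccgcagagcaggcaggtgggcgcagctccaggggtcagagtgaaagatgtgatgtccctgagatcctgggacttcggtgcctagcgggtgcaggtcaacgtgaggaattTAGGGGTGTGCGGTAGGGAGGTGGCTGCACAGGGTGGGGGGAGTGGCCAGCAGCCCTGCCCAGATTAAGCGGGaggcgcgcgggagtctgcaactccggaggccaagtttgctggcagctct
Col4a5: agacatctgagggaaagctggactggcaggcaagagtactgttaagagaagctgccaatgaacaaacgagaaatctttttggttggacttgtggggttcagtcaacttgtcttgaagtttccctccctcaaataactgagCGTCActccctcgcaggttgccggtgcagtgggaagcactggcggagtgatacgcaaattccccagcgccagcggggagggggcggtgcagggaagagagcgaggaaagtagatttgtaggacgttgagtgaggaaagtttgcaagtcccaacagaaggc
G and C made up 74.0% of the Col4a1 window, 63.3% of the Col4a4 window and 52.7% of the Col4a5 window, and the median over all 32851 windows was 52.7%. Both strands were searched for 5 motifs. The letters TGACG, the core of a cyclic AMP response element, were in 20.8% of all windows and, of the 5 here, in that of Col4a5, where they begin at base 141. The letters GGGCGG of a GC box were in 35.7% of all windows and in those of Col4a1, Col4a2, Col4a5 and Col4a6. CCAAT was in 37.4% of all windows and in those of Col4a1, Col4a2 and Col4a5. Neither TATAAA, in 13.6% of all windows, nor CTTTGAT or CTTTGAA, letters that TCF/LEF factors bind and that 8.65% of all windows held, was in any of the 5. A match describes letters in a window and is not evidence of binding.

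The libraries held 32997720 to 48935473 counted reads. Ctnnb1 fell with its siRNA to 306 to 334 CPM, against 745 to 766 CPM with control-siRNA, both with vehicle (log2 -1.26, SE 0.047, adjusted p = 6.30e-10), and to 326 to 342 CPM, against 776 to 811 CPM, with dDAVP (log2 -1.24, SE 0.047, adjusted p = 7.64e-10). CPM are counts per 1e6 reads scaled to library size by TMM, adjusted p-values are from edgeR over all 16508 genes, and genes with one under 0.05 are termed called. Of 12 collecting duct markers 11 were in the table, each with a mean over all 12 libraries above 1 TPM, although Aqp2 and Aqp3 were below 1 TPM with vehicle, and they summed to 4321 to 4431 TPM and 3862 to 3960 TPM in Ctnnb1-siRNA dDAVP and vehicle libraries, and to 4212 to 4340 TPM and 3927 to 3970 TPM in control-siRNA dDAVP and vehicle libraries. Markers of other cell types that make type IV collagen were low or few: 3 fibroblast markers summed to at most 0.39 TPM and 3 endothelial markers to at most 0.33 TPM in any library. Of 8 podocyte markers 3 were in the table and summed to 19.4 to 33.5 TPM. Synpo, which organises actin, rose with dDAVP (log2 0.89 with Ctnnb1-siRNA and 1.06 with control-siRNA) and Podxl, a surface sialomucin, fell (log2 -0.46 and -0.31), all 4 called, and the part of podocyte markers in the results below was not tested. Aqp2, the water channel that dDAVP induces in the collecting duct, averaged 4.94 TPM with dDAVP and 0.0767 TPM with vehicle in Ctnnb1-siRNA libraries, and 8.63 and 0.02 TPM in control-siRNA libraries. Ctnnb1-siRNA dDAVP replicate 3 stood below its mates for Col4a1 and Col4a2. The fold changes of these genes with dDAVP and with Ctnnb1-siRNA are given with and without it. Levels, shares of chains, correlations and the genes most alike are given only with it. Fewer cells and less RNA per cell cannot be told apart in these libraries.

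Levels between genes were compared as TPM, which is per transcript length. In control-siRNA vehicle libraries Col4a5 was the most abundant of the 7, with 84.4 ± 2.04 TPM (SD, n = 3), at the 88.1 percentile of tested genes, and Col4a1 followed with 58.6 ± 2.07 TPM. Col4a4 had 37.7 ± 2.07 TPM, Col4a2 30.2 ± 0.941 TPM, P3h2 24.3 ± 0.229 TPM and Col4a3 22.3 ± 1.89 TPM. Col4a6 was near the bottom of the table, with 0.187 ± 0.0351 TPM and 20 to 32 reads per library. No neighbours in that order overlapped across the 3 libraries, although the lowest P3h2 value, 24.1 TPM, was close to the highest Col4a3 value, 23.8 TPM.

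The order changed in part in the other groups. With dDAVP, P3h2 stood below Col4a3 in Ctnnb1-siRNA libraries, at 8.30 to 10.9 TPM and 11.8 to 14.3 TPM, and the ranges of both overlapped in control-siRNA libraries, at 10.2 to 14.1 TPM and 12.7 to 14.9 TPM. Col4a2 and Col4a3 overlapped in both Ctnnb1-siRNA groups, with 12.8 to 16.4 TPM and 11.8 to 14.3 TPM after dDAVP and with 19.2 to 22.4 TPM and 19.4 to 21.5 TPM after vehicle. P3h2, at 23.1 to 25.1 TPM, stood above both in Ctnnb1-siRNA vehicle libraries, whereas in control-siRNA vehicle libraries it stood below Col4a2, at 24.1 to 24.5 TPM and 29.1 to 30.8 TPM. Col4a5 and Col4a1 kept the first and second place by mean in all 4 groups, and Col4a6 kept the last. The order of genes with close TPM values rests on the transcript lengths used and was not repeated with other lengths.

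As shares of the summed TPM of the 6 chains, Col4a5 made up 38.4% ± 1.19 in Ctnnb1-siRNA dDAVP, 37.0% ± 1.66 in Ctnnb1-siRNA vehicle, 36.0% ± 1.09 in control-siRNA dDAVP and 36.2% ± 1.1 in control-siRNA vehicle libraries (SD, n = 3 each). Col4a1 made up 23.6% ± 2.43, 22.7% ± 0.651, 26.1% ± 0.877 and 25.1% ± 0.115 in the same order of groups. Col4a6, the partner of Col4a5 in the remaining trimer, stayed at or under 0.107% in every library. The sum itself was 133 ± 4.29 TPM with dDAVP and 194 ± 1.78 TPM with vehicle in Ctnnb1-siRNA cells, and 158 ± 10.4 TPM with dDAVP and 233 ± 7.51 TPM with vehicle in control-siRNA cells.

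The first comparison was dDAVP against vehicle. Since the genes were chosen with this response known, the values are a description and carry no p. Col4a1 and Col4a2, Col4a3, Col4a4 and Col4a5, and P3h2 were all lower with dDAVP under both siRNAs, by 1.34-fold to 1.59-fold for the chains and by 1.99-fold and 2.31-fold for P3h2.

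Of the pair that makes the common trimer, Col4a1 had 119, 124 and 91.7 CPM in Ctnnb1-siRNA dDAVP libraries, against 143, 152 and 154 CPM in Ctnnb1-siRNA vehicle libraries. It had 136, 139.5 and 135 CPM in control-siRNA dDAVP libraries, against 190.4, 186 and 188 CPM in control-siRNA vehicle libraries. The dDAVP libraries lay below the vehicle libraries without overlap under either siRNA, and replicate 3 of the Ctnnb1-siRNA dDAVP group was the lowest of all 12. The log2 fold change was -0.42 (SE 0.082) with Ctnnb1-siRNA and -0.46 (SE 0.082) with control-siRNA.

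Col4a2, its partner, had 56.7, 55.6 and 41.2 CPM in Ctnnb1-siRNA dDAVP libraries, against 72.8, 71.8 and 64.3 CPM in Ctnnb1-siRNA vehicle libraries. It had 65.0, 63.1 and 70.7 CPM in control-siRNA dDAVP libraries, against 95.5, 95.4 and 93.1 CPM in control-siRNA vehicle libraries. The groups again did not overlap, and the same Ctnnb1-siRNA dDAVP library was the lowest. The log2 fold change was -0.44 (SE 0.096) with Ctnnb1-siRNA and -0.51 (SE 0.095) with control-siRNA. Without that library the Ctnnb1-siRNA values were -0.31 for Col4a2 and -0.30 for Col4a1.

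Of the alpha3, alpha4 and alpha5 network, Col4a3 had 56.2, 57.7 and 61.6 CPM in Ctnnb1-siRNA dDAVP libraries, against 84.3, 95.3 and 89.7 CPM in Ctnnb1-siRNA vehicle libraries. It had 61.7, 58.0 and 56.4 CPM in control-siRNA dDAVP libraries, against 88.4, 94.7 and 96.3 CPM in control-siRNA vehicle libraries. Both dDAVP groups sat in 1 narrow band and both vehicle groups in another, with no library between them. The log2 fold change was -0.62 (SE 0.060) with Ctnnb1-siRNA and -0.67 (SE 0.060) with control-siRNA.

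Col4a4, which shares the start region printed above with Col4a3, had 107, 96.5 and 106 CPM in Ctnnb1-siRNA dDAVP libraries, against 164, 165 and 147 CPM in Ctnnb1-siRNA vehicle libraries. It had 118, 97.0 and 114 CPM in control-siRNA dDAVP libraries, against 160.3, 158 and 162 CPM in control-siRNA vehicle libraries. Replicate 2 was the lowest of the dDAVP libraries under each siRNA, and no dDAVP library reached a vehicle library. The log2 fold change was -0.62 (SE 0.069) with Ctnnb1-siRNA and -0.55 (SE 0.069) with control-siRNA.

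Col4a5, the chain common to both other trimers, had 180.2, 179 and 171 CPM in Ctnnb1-siRNA dDAVP libraries, against 232, 232 and 251 CPM in Ctnnb1-siRNA vehicle libraries. It had 189, 188 and 179 CPM in control-siRNA dDAVP libraries, against 279.7, 255 and 263 CPM in control-siRNA vehicle libraries. No dDAVP library reached a vehicle library here either. The log2 fold change was -0.43 (SE 0.051) with Ctnnb1-siRNA and -0.52 (SE 0.051) with control-siRNA.

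Col4a6 had 8, 16 and 10 reads in Ctnnb1-siRNA dDAVP libraries, against 14, 20 and 24 reads in Ctnnb1-siRNA vehicle libraries. It had 14, 13 and 27 reads in control-siRNA dDAVP libraries, against 25, 20 and 32 reads in control-siRNA vehicle libraries. The groups overlapped under both siRNAs, and the 95% intervals of the log2 fold change were wide, from -1.64 to -0.07 with Ctnnb1-siRNA and from -1.23 to 0.22 with control-siRNA. At this depth a difference of the size seen for the other chains could not be resolved.

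P3h2, the modifying enzyme, had 18.6, 15.7 and 18.1 CPM in Ctnnb1-siRNA dDAVP libraries, against 41.9, 39.6 and 39.8 CPM in Ctnnb1-siRNA vehicle libraries. It had 22.5, 17.9 and 18.8 CPM in control-siRNA dDAVP libraries, against 40.6, 38.9 and 38.2 CPM in control-siRNA vehicle libraries. The highest dDAVP value was well under the lowest vehicle value in each pair. The log2 fold change was -1.21 (SE 0.086), 56.8 percent lower, with Ctnnb1-siRNA and -0.99 (SE 0.085), 49.8 percent lower, with control-siRNA.

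**Figure D2:**
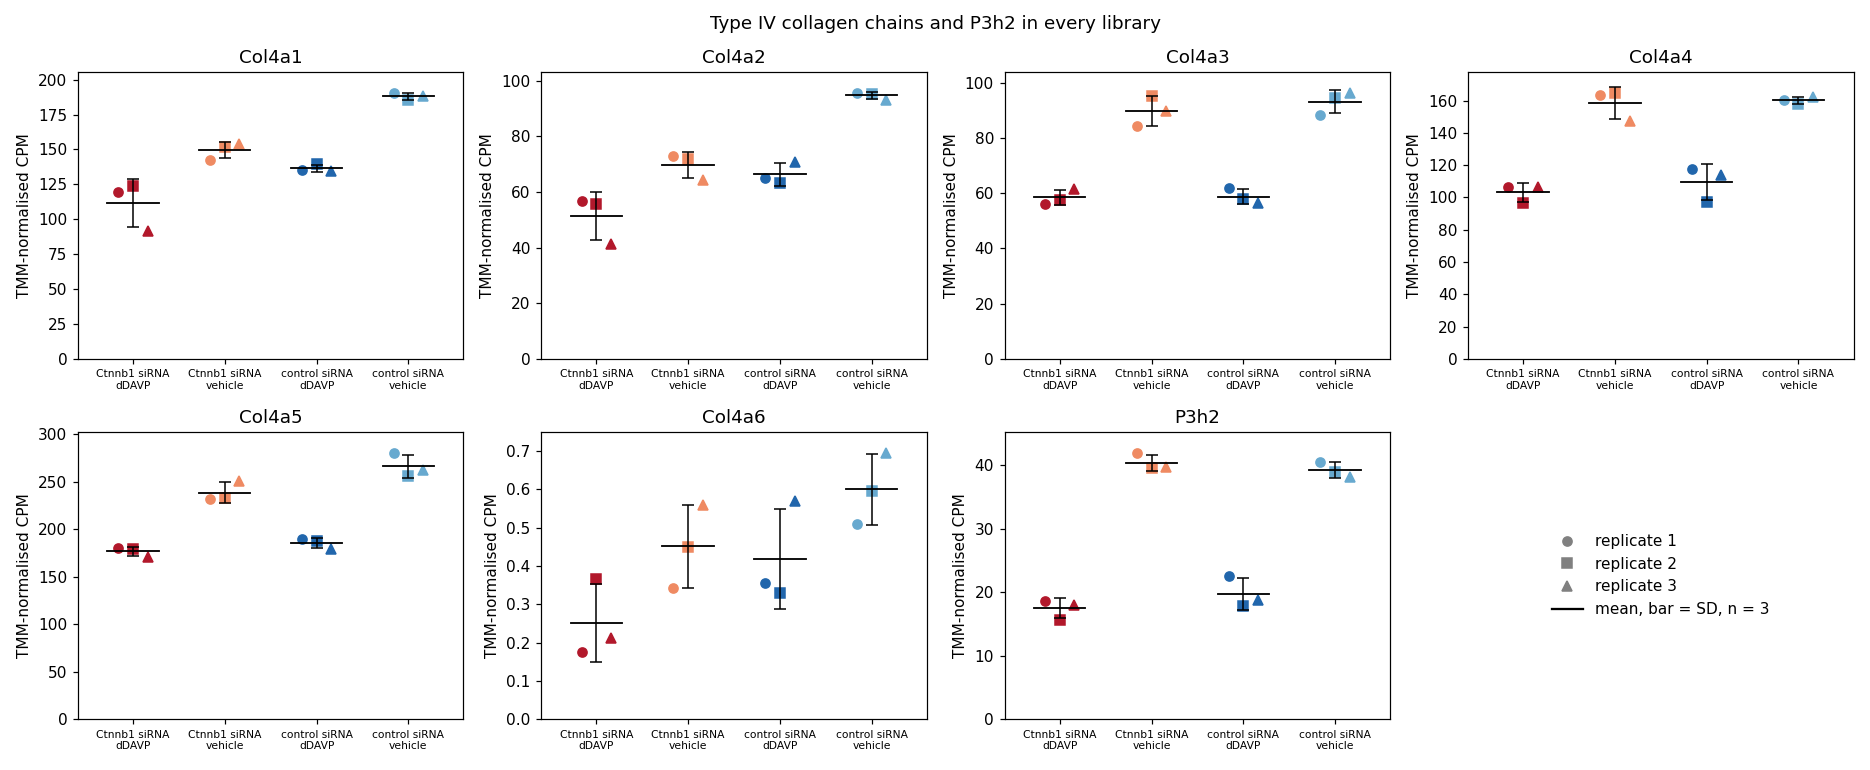
TMM-normalised CPM (vertical axes, from 0) of the 7 genes in all 12 libraries, by group; symbols are replicates 1 to 3, lines are means and bars are SD (n = 3). Except for Col4a6, every dDAVP library lies below every vehicle library of the same siRNA, and the Ctnnb1-siRNA dDAVP triangle is low for Col4a1 (91.7 CPM) and Col4a2 (41.2 CPM).

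Of the 7 genes, 6 were called lower with dDAVP under Ctnnb1-siRNA, where 0.697% of all tested genes were called lower, and 6 under control-siRNA, where 0.915% were. The same 6 did not overlap between dDAVP and vehicle, where 8.3% of tested genes with Ctnnb1-siRNA and 12% with control-siRNA lay wholly lower. Because the genes were chosen on this response, these counts support nothing beyond it. With control-siRNA the count was 6 in every alternative and without each library in turn. With Ctnnb1-siRNA it was 4 in a fit of only the 2 groups compared, 5 when replicate 1 of the Ctnnb1-siRNA vehicle group was left out, 4 when replicate 2 of that group was, and 6 otherwise.

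The second comparison was the interaction, which asks whether the change with dDAVP differed between the siRNAs. It was called for 0 of the 7 genes and for 0 of the 16508 tested genes by edgeR, with 0 and 829 at an unadjusted p under 0.05, and DESeq2 called 0 and 1. The adjusted p for the 7 ran from 0.918 to 0.979. For P3h2 the difference between the log2 changes was -0.22 (95% interval -0.45 to 0.02, unadjusted p = 0.0907), the estimate being more negative with Ctnnb1-siRNA. The differences of Col4a1, Col4a2, Col4a3, Col4a4 and Col4a5 lay between -0.07 and 0.09 on the log2 scale, with intervals between -0.26 and 0.33 in all. These intervals do not show that the responses were alike.

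The third comparison was Ctnnb1-siRNA against control-siRNA. The genes were not proposed on it, but they were chosen with earlier results of these data known. Tests of this comparison within each treatment also share libraries with the first comparison, so they were not independent of that choice. Col4a1 and Col4a2 were lower with Ctnnb1-siRNA in every library under both treatments, by 18.4% to 26.5% on average. Col4a3, Col4a4, Col4a6 and P3h2 overlapped between the siRNAs. Col4a5 was lower in every library with vehicle, by 10.3% on average, and overlapped with dDAVP. None of the 7 passed the test in either treatment on its own with edgeR.

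With vehicle, Col4a1 averaged 149.5 ± 5.97 CPM with Ctnnb1-siRNA and 188 ± 2.42 CPM with control-siRNA (SD, n = 3 each), a log2 change of -0.33 (SE 0.082, adjusted p = 0.123). With dDAVP it averaged 111.5 ± 17.3 CPM with Ctnnb1-siRNA and 137 ± 2.52 CPM with control-siRNA, a log2 change of -0.29 (SE 0.082, adjusted p = 0.175). Ctnnb1-siRNA libraries lay lower in 3 of 3 cases under each treatment.

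Col4a2 with vehicle averaged 69.6 ± 4.64 CPM with Ctnnb1-siRNA and 94.7 ± 1.35 CPM with control-siRNA, a log2 change of -0.44 (SE 0.095, adjusted p = 0.0623). With dDAVP it averaged 51.2 ± 8.63 CPM with Ctnnb1-siRNA and 66.3 ± 3.99 CPM with control-siRNA, a log2 change of -0.37 (SE 0.096, adjusted p = 0.144). It too was lower in 3 of 3 libraries each time.

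Ctnnb1-siRNA dDAVP replicate 3 weighed on these tests. In the comparison with vehicle it enters only the estimate of spread, and without it the adjusted p became 0.000902 for Col4a1 and 0.000859 for Col4a2, both called. With dDAVP the log2 change moved to -0.17 (adjusted p = 0.0754) for Col4a1 and to -0.24 (adjusted p = 0.0665) for Col4a2. Without Ctnnb1-siRNA dDAVP replicate 2, Col4a2 with vehicle had an adjusted p of 0.0479.

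Of the network genes, Col4a5 with vehicle averaged 238.5 ± 10.8 CPM with Ctnnb1-siRNA and 266 ± 12.5 CPM with control-siRNA, without overlap (log2 -0.16, SE 0.051, adjusted p = 0.321). With dDAVP it averaged 177 ± 4.90 CPM with Ctnnb1-siRNA and 185 ± 5.56 CPM with control-siRNA, with overlap (log2 -0.07, adjusted p = 0.644). For Col4a3 the log2 change was -0.05 (adjusted p = 0.919) with vehicle and -0.01 (adjusted p = 0.986) with dDAVP. For Col4a4 it was -0.02 (adjusted p = 0.991) with vehicle and -0.09 (adjusted p = 0.668) with dDAVP.

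Col4a6 had log2 changes of -0.41 (adjusted p = 0.885) with vehicle and -0.75 (adjusted p = 0.489) with dDAVP, on at most 32 reads per library. P3h2 averaged 40.4 ± 1.30 CPM with Ctnnb1-siRNA and 39.2 ± 1.23 CPM with control-siRNA after vehicle, with overlap. Its log2 change was 0.04 (adjusted p = 0.970), and -0.035 on the log2 TPM scale. After dDAVP the P3h2 change was -0.17 (adjusted p = 0.456).

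In all, edgeR called 0 of the 7 with vehicle, where 0.43% of tested genes were called, and 0 with dDAVP, where 0.267% were. At an unadjusted p under 0.05 there were 3 of 7 with vehicle (Col4a1, Col4a2 and Col4a5) and 2 of 7 with dDAVP (Col4a1 and Col4a2). Of all 16508 tested genes, 1336 with vehicle and 1925 with dDAVP were under it. DESeq2 called Col4a1 and Col4a2 under both treatments, with adjusted p of 0.0148 and 0.00157 with vehicle and of 0.0382 and 0.0150 with dDAVP. Over all tested genes DESeq2 called 177 with vehicle and 237 with dDAVP. Col4a1, Col4a2 and Col4a5 lay wholly lower with vehicle, as did 9.26% of tested genes, and Col4a1 and Col4a2 did so with dDAVP, as did 6.02%. The two-sided exact permutation test gave p = 0.1 for each of these 5, the smallest p that 3 against 3 libraries allow.

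**Figure D3:**
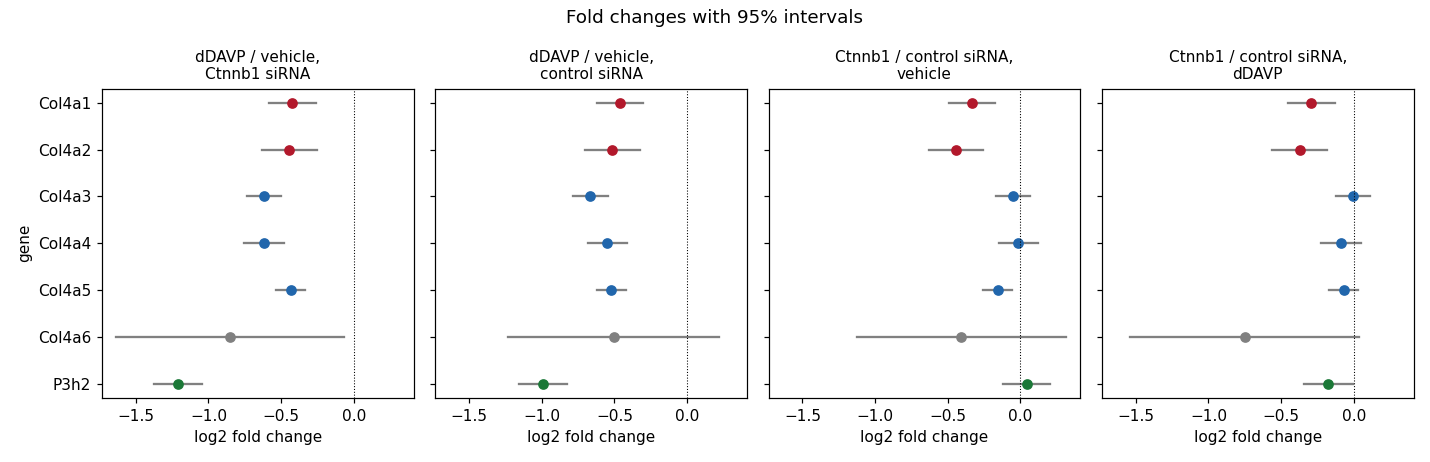
Log2 fold change (horizontal axes) of each of the 7 genes with its 95% interval, for dDAVP over vehicle with each siRNA and for Ctnnb1-siRNA over control-siRNA with each treatment; red marks Col4a1 and Col4a2, blue Col4a3 to Col4a5, grey Col4a6 and green P3h2. With dDAVP every point is left of 0, and with Ctnnb1-siRNA the points of Col4a1 and Col4a2, -0.44 to -0.29, are farther from 0 than those of Col4a3 and Col4a4, -0.09 to -0.01. With vehicle and dDAVP in turn, the Ctnnb1-siRNA points are -0.16 and -0.07 for Col4a5, -0.41 and -0.75 for Col4a6, and 0.04 and -0.17 for P3h2.

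The siRNA effect averaged over both treatments, a contrast added after the data were seen, uses all 12 libraries. Col4a1 was 19.5% lower (log2 -0.31, SE 0.058, 95% interval -0.43 to -0.20, adjusted p = 0.00992) and Col4a2 24.7% lower (log2 -0.41, SE 0.067, interval -0.54 to -0.28, adjusted p = 0.00515). Both were called, where 0.909% of tested genes were called lower, and both kept the call in 18 of 18 alternatives, with the smallest changes, -0.25 and -0.34, without Ctnnb1-siRNA dDAVP replicate 3.

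The averaged change was -0.03 for Col4a3 (interval -0.11 to 0.05, adjusted p = 0.843), -0.05 for Col4a4 (interval -0.15 to 0.05, adjusted p = 0.732) and -0.07 for P3h2 (interval -0.18 to 0.05, adjusted p = 0.711). Col4a5 had -0.11 (interval -0.18 to -0.04, adjusted p = 0.149), with a call on the log2 TPM scale (adjusted p = 0.0377). Col4a6 had -0.58 (interval -1.11 to -0.04, adjusted p = 0.376). The intervals of Col4a1 and Col4a2 did not reach those of the other genes apart from Col4a6, but the difference between genes was not tested.

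The balance between the networks was followed in every library as the summed TPM of Col4a3, Col4a4 and Col4a5 over that of Col4a1 and Col4a2. With vehicle it was 1.98, 1.95 and 1.99 with Ctnnb1-siRNA, against 1.64, 1.60 and 1.64 with control-siRNA. With dDAVP it was 1.75, 1.68 and 2.28 with Ctnnb1-siRNA, against 1.64, 1.52 and 1.52 with control-siRNA. Every Ctnnb1-siRNA library lay above every control-siRNA library of the same treatment, and the highest value was that of replicate 3 of the Ctnnb1-siRNA dDAVP group. Without that library the Ctnnb1-siRNA dDAVP values, 1.75 and 1.68, stood closer to the highest control-siRNA dDAVP value, 1.64. Col4a1 and Col4a2 are the denominator, so the ratio restates their lower values with Ctnnb1-siRNA and is not a further result. How often ratios of other genes separate in this way was not counted. Between dDAVP and vehicle the ratios overlapped for both siRNAs, each time through only 1 dDAVP library. It was replicate 3 with Ctnnb1-siRNA and replicate 1 with control-siRNA. The other 2 dDAVP libraries lay below all 3 vehicle libraries under each siRNA.

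Ratios within each network varied between libraries too, with Col4a5 over Col4a4 running from 1.83 to 2.54. Whether they moved less than the ratio between the networks was not tested. Col4a1 over Col4a2 averaged 2.13 ± 0.0701 and 2.11 ± 0.214 in Ctnnb1-siRNA dDAVP and vehicle libraries, and 2.02 ± 0.150 and 1.94 ± 0.0392 in control-siRNA dDAVP and vehicle libraries (SD, n = 3 each). Col4a3 over Col4a4 averaged 0.554 ± 0.0300, 0.558 ± 0.0509, 0.534 ± 0.0533 and 0.590 ± 0.0240 in the same order. Col4a5 over Col4a4 averaged 2.23 ± 0.136, 1.97 ± 0.242, 2.24 ± 0.266 and 2.24 ± 0.115. The level ratios depend on transcript length: with reads per kilobase of all annotated exons the control-siRNA vehicle values became 1.76, 0.619 and 2.62, while the ratio between the networks was 1.62 in place of 1.63.

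**Figure D4:**
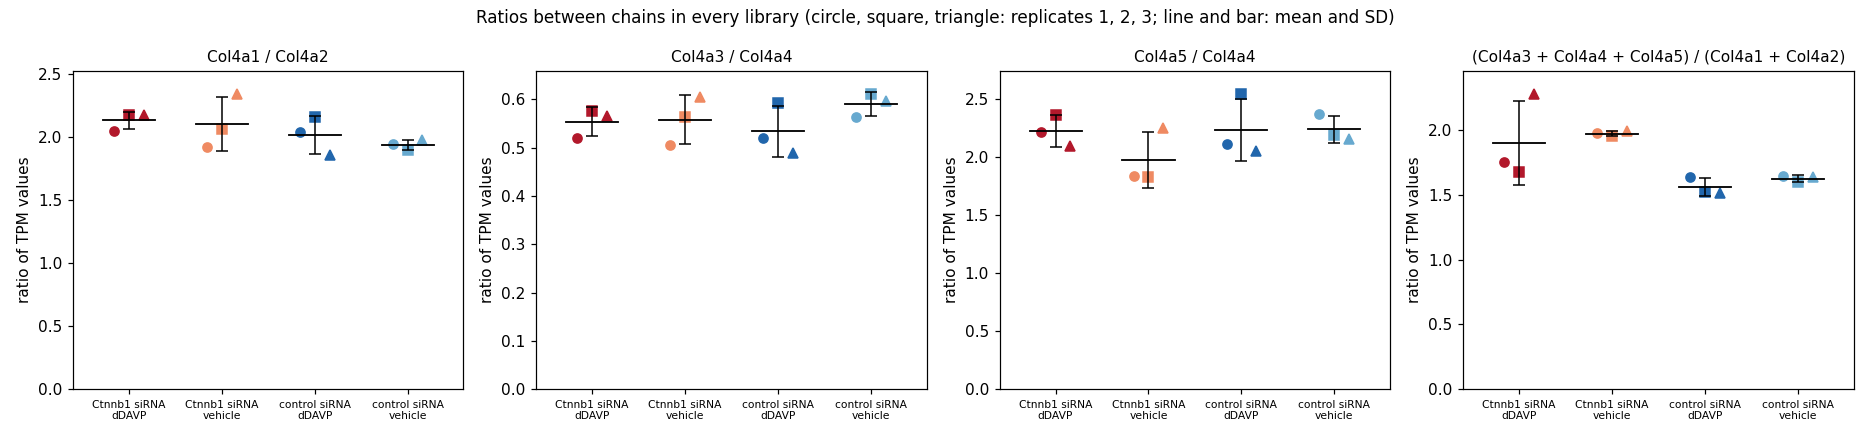
Ratios of TPM values between chains (vertical axes, from 0) in every library by group, with means and SD (n = 3). In the panel on the right, the alpha3, alpha4 and alpha5 network over the alpha1 and alpha2 pair, Ctnnb1-siRNA libraries reach 1.68 to 2.28 and control-siRNA libraries 1.52 to 1.64.

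Over the 12 libraries Pearson's r of log2 CPM was 0.968 between the paired genes Col4a1 and Col4a2 and 0.954 between the paired genes Col4a3 and Col4a4, but 0.692 between Col4a5 and its sparsely counted partner Col4a6. Across pairs it was 0.696 to 0.756 for Col4a1 or Col4a2 with Col4a3 or Col4a4, 0.885 for Col4a1 with Col4a5, 0.822 for Col4a2 with Col4a5, 0.941 for Col4a3 with Col4a5 and 0.912 for Col4a4 with Col4a5. The highest of these values across pairs was close to those within the first 2 pairs. P3h2 had r of 0.965 with Col4a3, 0.983 with Col4a4 and 0.943 with Col4a5, and 0.761 with Col4a1 and 0.722 with Col4a2. The points share the same libraries and fall into groups by treatment, so these r are a description. Because the genes were chosen with their response to dDAVP known, high r among them was partly set in advance. The best of 9445 other genes reached like values, with r of 0.975 for Itgb6 with Col4a3 and 0.977 for Phldb1 with Col4a1. In Ctnnb1-siRNA dDAVP replicate 3, Col4a1 and Col4a2 stood 0.27 and 0.30 log2 units below their group's mean, while Col4a3, Col4a4 and P3h2 stood 0.07, 0.04 and 0.05 above it. Col4a5 and the sparsely counted Col4a6 deviated from their group's mean by -0.0465 and -0.155.

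Among 9445 other genes with a mean of at least 10 CPM, those most like Col4a1 were Phldb1 (r = 0.977), whose protein anchors microtubules at the basal cortex, Hdac11 (r = 0.965), a histone deacetylase, and Rap1gap (r = 0.965), which switches off the GTPase Rap1. Those most like Col4a3 were Itgb6 (r = 0.975), an epithelial integrin subunit, Mme (r = 0.958), the membrane protease neprilysin, and Dzip1l (r = 0.948), a protein of the ciliary base. Mme (r = 0.973) and Itgb6 (r = 0.950) were also among those most like P3h2, with Hdac5 (r = 0.964), another histone deacetylase. On the log2 TPM scale 2 of the 3 genes were the same for each.

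The other genes of collagen production were followed with 6 lists of 75 genes, of which 64 were in the table and 47 were tested. With dDAVP, edgeR called 1 higher and 1 lower with Ctnnb1-siRNA, where 2.78% of all tested genes were called in either direction, and 1 higher and 2 lower with control-siRNA, where 2.83% were. The median log2 change of the 47 was -0.08 and -0.09, against -0.00 over all tested genes in both.

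In the endoplasmic reticulum, where chains are hydroxylated, glycosylated and folded, 0 of 13 tested genes were called with dDAVP under either siRNA. P4hb, a subunit of prolyl 4-hydroxylase, had 411 TPM with dDAVP and 405.5 TPM with vehicle in Ctnnb1-siRNA libraries, and 413 and 436 TPM in control-siRNA libraries. Serpinh1, the collagen chaperone HSP47, had 64.0 TPM with dDAVP and 80.6 TPM with vehicle in Ctnnb1-siRNA libraries, and 63.6 and 85.6 TPM in control-siRNA libraries. Its log2 changes were -0.27 (adjusted p = 0.238) and -0.37 (adjusted p = 0.0734). With Ctnnb1-siRNA, Serpinh1 had 85.5, 87.4 and 60.8 CPM after dDAVP, against 91.1, 94.5 and 95.3 CPM after vehicle. Its change there thus leaned on dDAVP replicate 3. Of the relatives of P3h2, P3h1 was at most 0.47 TPM in any library, and P3h4, which lacks the enzyme activity, averaged 3.78 TPM with dDAVP and 4.73 TPM with vehicle in Ctnnb1-siRNA libraries, and 3.94 and 4.71 TPM in control-siRNA libraries.

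Among export and assembly genes 0 of 9 were called. Pxdn, the peroxidase that makes the sulfilimine bonds joining type IV collagen trimers, had log2 changes with dDAVP of -0.09 with Ctnnb1-siRNA (adjusted p = 0.516) and -0.15 with control-siRNA (adjusted p = 0.148). Of 9 basement membrane partners, Lamb1, the laminin beta1 chain, was called lower with control-siRNA (log2 -0.28, SE 0.050, adjusted p = 0.00464), and 0 were called with Ctnnb1-siRNA, where Lamb1 had -0.15 (adjusted p = 0.136). The interaction was called for 0 of the 47 list genes.

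Among 5 receptors Itga1, the alpha subunit of a collagen-binding integrin, rose with dDAVP (log2 0.54, SE 0.093, adjusted p = 0.00375 with Ctnnb1-siRNA; log2 0.49, SE 0.093, adjusted p = 0.00816 with control-siRNA). It averaged 7.35 TPM with dDAVP and 5.24 TPM with vehicle in Ctnnb1-siRNA libraries, and 7.98 and 5.88 TPM in control-siRNA libraries. With control-siRNA the call did not survive leaving out vehicle replicate 2 (adjusted p = 0.0536) or dDAVP replicate 1 (adjusted p = 0.0517), and neither call was made on the log2 TPM scale. Mmp15, a membrane-bound matrix protease, fell (log2 -0.41, adjusted p = 0.0326 with Ctnnb1-siRNA, and log2 -0.38, adjusted p = 0.0458 with control-siRNA). With 1 library left out at a time, the call was kept in 6 of 12 fits with Ctnnb1-siRNA (adjusted p up to 0.179). With control-siRNA it was kept in 4 of 12 (adjusted p up to 0.248). Each call was kept in 4 of 7 other settings and was not made on the log2 TPM scale. Of 6 tested other collagens 0 were called.

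**Figure D5:**
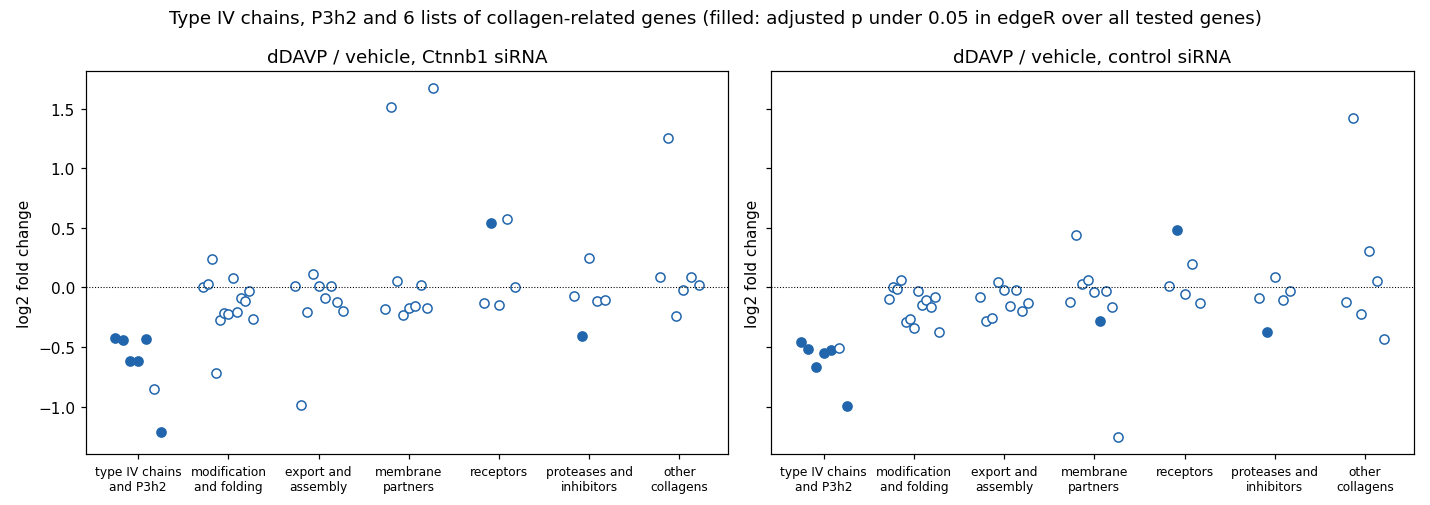
Log2 fold change with dDAVP over vehicle (vertical axis) of the 7 genes and of the 47 tested genes of the 6 lists, with Ctnnb1-siRNA on the left and control-siRNA on the right; filled points were called at an adjusted p under 0.05. The filled points of the first column lie between -0.42 and -1.21, and the lists hold 2 filled points with Ctnnb1-siRNA and 3 with control-siRNA. The genes of the first column were chosen on this response, so their filled points support nothing beyond it.

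With Ctnnb1-siRNA 1 of the 47 list genes was called in each treatment, where 0.43% of tested genes were with vehicle and 0.267% with dDAVP. P4ha1, a catalytic subunit of prolyl 4-hydroxylase, the enzyme that stabilises collagen helices, was higher than with control-siRNA (log2 0.39, SE 0.071, adjusted p = 0.0230 with vehicle; log2 0.45, SE 0.072, adjusted p = 0.0125 with dDAVP). With vehicle it had 169, 175 and 183 CPM with Ctnnb1-siRNA, against 133, 136 and 134 CPM with control-siRNA. With dDAVP it had 146.5, 144 and 165 CPM with Ctnnb1-siRNA, against 103, 126 and 106 CPM with control-siRNA. The groups did not overlap in either treatment, and the share of all tested genes lying wholly higher was not counted. Neither call was made on the log2 TPM scale. The call with dDAVP was not made in a fit of only the 2 groups compared (adjusted p = 0.194). The call with vehicle was lost without any 1 of the 6 vehicle libraries (adjusted p up to 0.135) and that with dDAVP without control-siRNA dDAVP replicate 1 or 3 (adjusted p up to 0.124). Averaged over both treatments, P4ha1 rose by 0.42 (adjusted p = 0.000394) and Mmp15 fell by 0.37 (adjusted p = 0.00861), both called without each library in turn. Sparc, a collagen-binding matrix protein, fell by 0.45 (adjusted p = 0.0198), a call kept in 8 of 12 fits with 1 library left out (adjusted p up to 0.0734). Loxl4, a lysyl oxidase, rose by 0.30 (adjusted p = 0.0334), a call kept in only 4 of 12 such fits (adjusted p up to 0.0906). The Loxl4 call was also lost with the replicate block (adjusted p = 0.0616) and on the log2 TPM scale (adjusted p = 0.269). Of the 47 list genes, 4 were thus called on the average, where 1.85% of tested genes were.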

How the data were processed

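Libraries were made with a strand-marking kit from total RNA after removal of ribosomal RNA, per the labels' protocols. Per the submitters' processing notes, FastQC, Trimmomatic, HISAT2, StringTie and DESeq2 were used with GRCm38 (mm10), with roles and versions not given there. How reads on both strands or in several genes were counted is not given in the sources used here. Per the file headers, the deposited table holds read counts and TPM values for 12 libraries. The counts are whole numbers and were tested as deposited. The deposited TPM values are per transcript length and served for levels between genes and for 1 alternative.

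In R 4.3.3, edgeR 4.0.16 kept 16508 genes with filterByExpr (99.968% of reads), scaled libraries by TMM and fitted 1 coefficient per group to all 12 libraries with robust quasi-likelihood dispersions (common biological coefficient of variation 8.26%). Adjusted p-values are Benjamini-Hochberg over all tested genes, and 95% intervals are the log2 fold change ± 1.96 SE. Counting error and replicate spread enter that SE together. The members and the gene lists were chosen with earlier results of these data known. All 7 members are named, up to 3 called genes per list and comparison by adjusted p, and the 3 genes most like Col4a1, Col4a3 and P3h2; P4hb, Serpinh1, P3h1, P3h4 and Pxdn were named after their values were seen. Alternatives were DESeq2 1.42.0, its size factors in edgeR, other filters, a fit of only the groups compared, a replicate block, limma 3.58.1 on log2(TPM + 1), and each library left out. The method was tested on simulated data. Promoter windows and gene positions are from RefSeq GRCm38.p6, start distances from GENCODE M21.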

Additional observations from a re-analysis of the deposited data

How the results depend on the processing

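The dDAVP changes of Col4a1 to Col4a5 and P3h2 kept their direction in every alternative. On the log2 TPM scale, which shifted the median of all genes by -0.05 with dDAVP and -0.07 with Ctnnb1-siRNA, the dDAVP change with control-siRNA was -0.50 for Col4a1, and that of Col4a6 was -0.079 with either siRNA. With Ctnnb1-siRNA 4 of the 7 were called for dDAVP in a fit of only those 2 groups, and 4 to 6 with 1 library left out. Because the genes were chosen on this response, these counts support nothing beyond it. Counts over all tested genes, for these settings and for the counts of the 7 that follow, are given in the next paragraph. For the siRNA comparison with vehicle, Col4a1 and Col4a2 were called with DESeq2 (log2 -0.33 and -0.44), in a fit of only those 2 groups (-0.33 and -0.44; adjusted p = 0.000724 and 0.000479) and on log2 TPM (-0.40 and -0.50; adjusted p = 0.0297 and 0.0467), so that 2 of the 7 were called in each. With dDAVP, DESeq2 called 2 of 7 (-0.30 and -0.38), and a fit of only those 2 groups none (adjusted p = 0.544 and 0.523). Averaged, Col4a5 was called on log2 TPM (-0.19). With 1 library left out, the changes with vehicle ran from -0.35 to -0.30 for Col4a1 and from -0.47 to -0.39 for Col4a2, with 0 to 2 of the 7 called. Small changes reversed sign, never with a call: P3h2 with vehicle on log2 TPM (-0.035), Col4a3 with dDAVP without a filter (0.00094), the Col4a6 interaction on log2 TPM (0.000695), and, with 1 library left out, Col4a4 with vehicle (-0.044 to 0.037), Col4a3 with dDAVP (-0.043 to 0.033), and the interaction of Col4a1 (-0.048 to 0.16), Col4a2 (-0.0092 to 0.20) and Col4a3 (-0.0037 to 0.093). Per kilobase of GENCODE exons the 3 ratios within networks became 1.76, 0.619 and 2.62.

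Counts of called genes varied more. DESeq2 called 728 genes for dDAVP with Ctnnb1-siRNA, 762 with control-siRNA, 177 for siRNA with vehicle, 237 with dDAVP, 1 for the interaction and 582 on average, against 459, 467, 71, 44, 0 and 305 with edgeR, and 4, 5, 3, 4 and 8 list genes, against 2, 3, 1, 1 and 4, leaving out the interaction. A fit of only the groups compared called 275 for dDAVP with Ctnnb1-siRNA, 255 for siRNA with vehicle and 8 with dDAVP, with 1, 3 and 0 list genes. Log2 TPM gave 210 for dDAVP with Ctnnb1-siRNA, 59 for siRNA with vehicle and 21 for siRNA with dDAVP, and 0 list genes in each of them. With 1 library left out the counts ran from 212 to 492, 240 to 843, 18 to 181, 5 to 216 and 172 to 606 genes, and from 1 to 4, 1 to 6, 0 to 1, 0 to 4 and 2 to 6 list genes, in the order of the edgeR counts above, again leaving out the interaction. In 4 of these the most were called without Ctnnb1-siRNA dDAVP replicate 3. The cause was not tested. Same-numbered libraries did not deviate together (r from -0.0864 to 0.0719 over 18 pairs, 3 of 12 libraries closest to their own number), so replicate numbers were not taken as pairs. With the replicate block the siRNA changes with vehicle had adjusted p of 0.154 for Col4a1 and 0.0741 for Col4a2, 1 list gene was called for dDAVP with Ctnnb1-siRNA, and no call of the 7 genes changed. Of the 7, depth limited Col4a6, with 8 to 32 reads per library.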
